A study of Mus musculus with 18 samples.

Results

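The genes described are 42 mouse genes of mitosis and the G2/M transition, taken by symbol from the gene names of the deposited count file and followed in all 6 conditions of the study. All 42 members were found among the 56748 genes of that file, and all 42 were among the 13691 genes that passed the filter on low counts and were tested. The members were sorted by role into 7 cyclins and their partners, 8 mitotic kinases and chromosomal passenger proteins, 7 proteins of the spindle checkpoint and the anaphase-promoting complex, 6 proteins of the centromere and kinetochore, 12 proteins of the spindle and of cytokinesis, and 2 proteins of chromosome structure.

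The study sequenced poly(A) RNA from RAW 264.7 cells, a mouse macrophage line, in 18 libraries, with 3 biological replicates for each of 6 conditions. In the deposited counts, the names of all 18 libraries begin with WT. Control cells were untreated. TBHQ, tert-butylhydroquinone, is an antioxidant compound and was given at 5 µM for 4 h. LPS, a bacterial cell wall component, was given at 0.1 µg/mL for 12 h, and PIC, a synthetic double-stranded RNA, at 20 µg/mL for 12 h. In LPS + TBHQ and PIC + TBHQ, the 4 h of TBHQ came before the 12 h of the stimulus. Cells given TBHQ alone were harvested at the end of the 4 h, while the study's timeline lists Control, in medium alone, with the 12 h conditions. Harvest time and TBHQ therefore cannot be told apart in TBHQ against Control. The TBHQ stock was made in the solvent DMSO, and the study describes no DMSO control for the sequenced cells. TBHQ and its solvent therefore cannot be told apart in any comparison of cells with and without TBHQ. The 5 comparisons with Control share its 3 libraries. RAW 264.7 is an established, dividing line, and the 3 replicates of a condition are cultures of that line.

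As background, a cell enters mitosis when cyclin A and cyclin B activate the kinase Cdk1, which Cdc25 phosphatases release from inhibition. Kinetochores then attach chromosomes to the spindle while the spindle checkpoint holds back the anaphase-promoting complex, whose activation by Cdc20 destroys cyclin B and securin and lets the chromatids part. Transcripts of these genes accumulate in G2 and mitosis and are low in cells that have left the cycle, and macrophages exposed to bacterial or viral products are known to slow their proliferation.

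Levels are given as FPKM, as the authors deposited them. These are fragments counted on a gene and scaled to its length and to the library total. A further factor, constant within a library, differs between libraries. Overlap between conditions in a named gene was read on FPKM. Each library held between 14423390 and 18851626 counts. Differences are log2 fold changes (log2FC) between groups of 3 libraries, estimated from the counts with edgeR. SE is the standard error of the difference between the group means of log2 counts. These counts were scaled to the library total after its adjustment by TMM, the scaling used in the edgeR fit. FDR is the p-value of the edgeR quasi-likelihood test with Benjamini-Hochberg adjustment over the 13691 genes, and a gene was called higher or lower at an FDR below 0.05. A stricter threshold, which the study used, required an FDR below 0.01 and an absolute log2FC above 2. Ranks of members by log2FC are those of the main edgeR test, and some of them changed in other settings. Of 9 markers of the macrophage line, 8 were tested and present in every library, their summed FPKM was 4398 to 5688 per library, and the most abundant was Lyz2 at 3399 to 4647 FPKM. The other marker, Mertk, had 0 to 5 counts per library and was not tested. Markers of T cells, fibroblasts, epithelium and neutrophils reached at most 8 counts in any library. Of the endothelial markers, Kdr reached 26 counts. Cd3e, Cd8a, Col1a2, Krt8, Krt18 and Ly6g were at 0 counts in all 18 libraries.

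The 42 members together took the largest share of library counts in the cells without a stimulus. Their mean share was 0.521% in Control (SD 0.000927, n = 3) and 0.534% in TBHQ (SD 0.0046, n = 3). The mean share was 0.172% in LPS (SD 0.00774, n = 3) and 0.124% in PIC (SD 0.00409, n = 3). With TBHQ before the stimulus it was 0.231% in LPS + TBHQ (SD 0.00489, n = 3) and 0.153% in PIC + TBHQ (SD 0.00427, n = 3). The 3 libraries of each condition lay apart from those of every other condition on this measure. These are bulk libraries, so fewer cells of a type and less RNA per cell cannot be told apart. The summed FPKM of the members gave the same order, with means of 1039.8 in TBHQ, 1002.4 in Control, 452 in LPS + TBHQ, 341 in LPS, 328 in PIC + TBHQ and 273 in PIC.

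**Figure D1:**
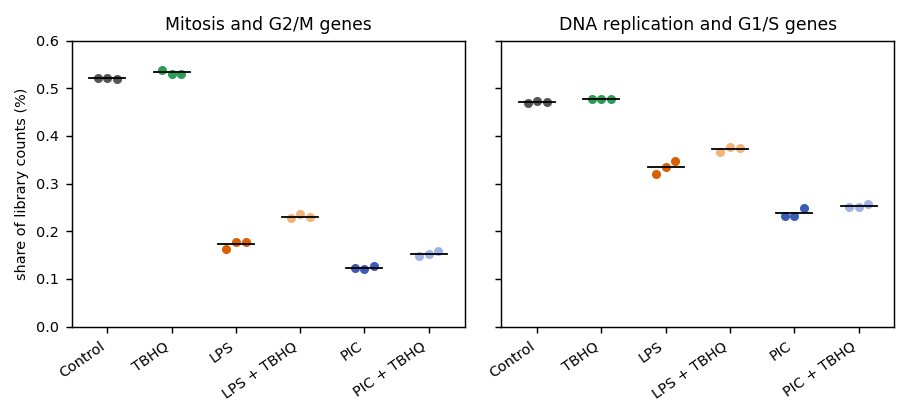
Share of library counts, in percent, taken by the 42 mitosis and G2/M genes (left) and by 51 DNA replication and G1/S genes (right); each point is a library and each line the mean of 3. The mitosis share was lowest in PIC, at a mean of 0.124%, against 0.521% in Control.

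All 42 members fell after LPS and all 42 fell after PIC. In LPS against Control, 0 of 42 were called higher, where 24% of all tested genes were, and 42 were called lower, where 24.1% of all tested genes were. The median log2FC of the members was -1.58 and that of all tested genes was -0.00. After PIC, 0 members were called higher than in Control, against 28.6% of all tested genes, and 42 were called lower, against 30.1%. The member median was -1.98 and the median of all tested genes -0.01. For both counts of 0, edgeR gave 0 members at an unadjusted p under 0.05 and DESeq2 called 0. By the stricter threshold, 6 members were lower in LPS, where 0.292% of all tested genes were lower, and 20 in PIC, where 0.869% were. More than 2-fold lower were 40 members in LPS and 41 in PIC. No LPS or PIC library overlapped the Control libraries in any of the 42 members, where 27% of all tested genes lay apart and lower in LPS and 32.2% in PIC.

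With TBHQ before the stimulus, the members also lay below Control, by a smaller median. After LPS with pretreatment, 42 of 42 were called lower than in Control, against 22.5% of all tested genes, and 0 higher, against 21.2%. The member median was -1.17 and the median of all tested genes was -0.01. After PIC with pretreatment, 42 were called lower than in Control, against 26% of all tested genes, and 0 higher, against 26.4%. Here the member median was -1.73 and the all-gene median -0.00. For these counts of 0 as well, edgeR gave 0 members at an unadjusted p under 0.05 and DESeq2 called 0. The stricter threshold called 0 members lower in LPS + TBHQ, against 0.124% of all tested genes, although all 42 were lower in edgeR at an unadjusted p under 0.05. The same threshold called 8 members lower in PIC + TBHQ, against 0.394% of all tested genes. More than 2-fold lower than Control were 35 members in LPS + TBHQ and 39 in PIC + TBHQ.

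Set directly against the stimulus without pretreatment, most members were higher with TBHQ. TBHQ before LPS left 38 of 42 members called higher than in LPS alone, against 11.7% of all tested genes, and 0 lower, against 12.2%. By edgeR 0 members were lower at an unadjusted p under 0.05, and by DESeq2 0 were called lower. The member median log2FC was 0.42 and the all-gene median 0.00. TBHQ before PIC left 29 members called higher than in PIC alone, against 15.8% of all tested genes, and 1 lower, against 15.5%, with a member median of 0.25 and an all-gene median of 0.01. No member differed by more than 2-fold in either comparison. The 4 members not called in LPS + TBHQ against LPS were Bub1, Bub3, Mad2l1 and Pttg1.

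PIC and LPS also differed from each other in the members. Of the 42 members, 37 were called lower in PIC than in LPS, against 12.8% of all tested genes, and 0 higher, against 14.9%. The member median was -0.36 and the all-gene median -0.01. At an unadjusted p under 0.05 edgeR gave 1 member higher, and DESeq2 called 0. The 5 members not called were Bub1b, Bub3, Cdc25c, Pttg1 and Ube2c. In TBHQ against Control, 6 of the 42 were called higher, a share like the 14.2% of all tested genes, and 1 lower, against 14.8%, with a member median of 0.04 and an all-gene median of -0.00. The interaction test asked whether the effect of TBHQ in PIC differed from its effect in LPS. It called 0 members higher, against 0.825% of all tested genes, and 1 lower, against 1.01%, with a member median of -0.16 and an all-gene median of 0.01. For that 0, edgeR gave 0 members at an unadjusted p under 0.05, and DESeq2 called 0. On the lower side, edgeR gave 15 of the 42 members at an unadjusted p under 0.05, and 939 of the 13691 tested genes. The count of 1 lower changed with the setting. It was 5 with DESeq2, 3 with RLE scaling, 6 with no filter, and 0 in limma on log2(FPKM + 1) without a filter.

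The scaling of the libraries moved the split of calls over all genes. When libraries were scaled to their total counts and not by TMM, the median log2FC of all tested genes was -0.23 in PIC against Control, -0.15 in PIC + TBHQ against Control and -0.14 in PIC against LPS. TMM scaling gave 3283 higher and 3306 lower genes in LPS, and total library size gave 2454 and 4558. In PIC the calls were 3917 higher and 4120 lower with TMM and 2379 and 6635 with total library size. They were 2896 and 3087 in LPS + TBHQ against Control with TMM and 2281 and 4034 with total library size, and in PIC + TBHQ against Control 3615 and 3563 with TMM and 2364 and 5515. For pretreatment within LPS, 1601 higher and 1673 lower became 2061 and 1401, and in PIC + TBHQ against PIC, 2167 and 2118 became 3398 and 1436. For PIC against LPS, 2035 and 1752 became 985 and 4373. For the interaction, 113 and 138 became 235 and 74 with total library size, 95 and 176 with RLE scaling, and 102 and 246 with DESeq2. The direction of the members as a group was the same with all of these scalings in all 9 comparisons.

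**Figure D2:**
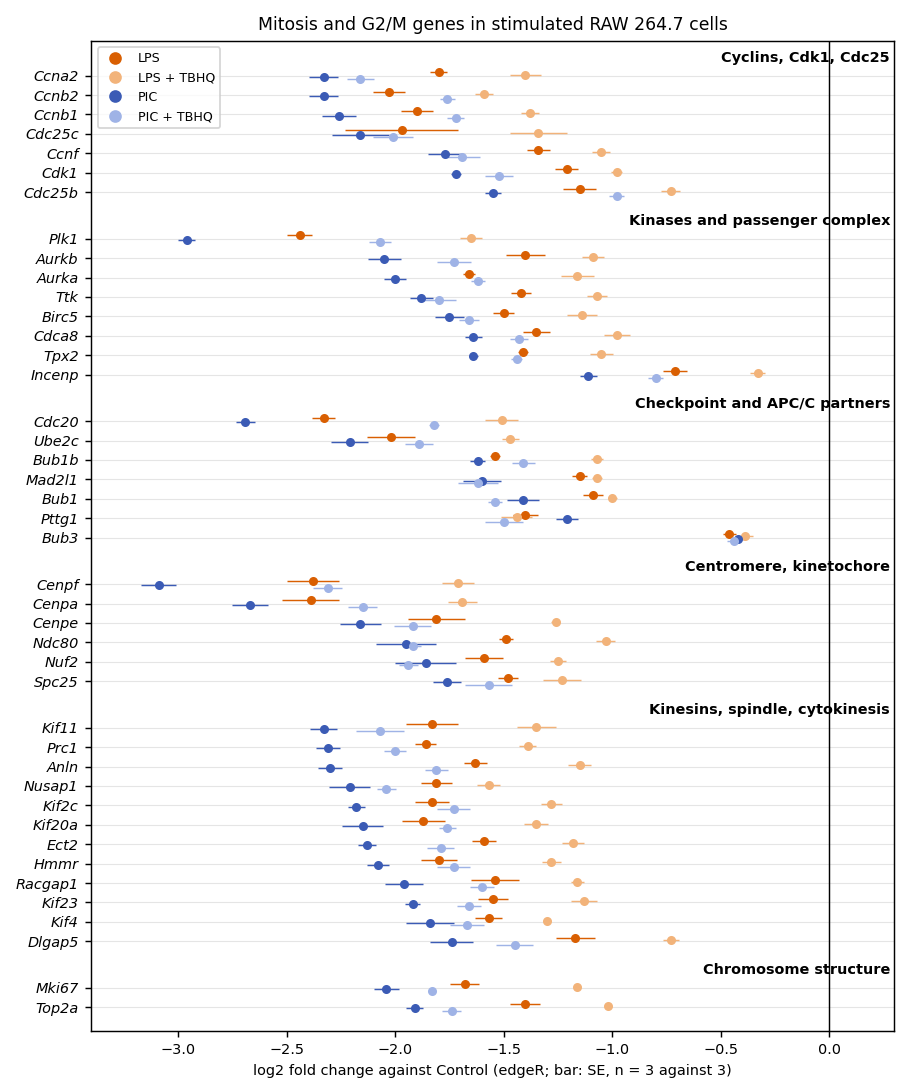
Log2 fold change against Control of the 42 members, in groups by role, in LPS, LPS + TBHQ, PIC and PIC + TBHQ; points are edgeR estimates from 3 against 3 libraries and bars are SE. All points lie below 0, from -3.09 for Cenpf in PIC to -0.33 for Incenp in LPS + TBHQ.

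Among the cyclins, Cdk1 and the Cdc25 phosphatases, all 7 members were lower than Control after LPS and after PIC. The median log2FC of the role was -1.80 in LPS and -2.16 in PIC, and -1.34 in LPS + TBHQ and -1.72 in PIC + TBHQ against the same Control libraries. Ccnb2 encodes cyclin B2, a partner of Cdk1, and had the highest mean FPKM of the role over the 18 libraries. The FPKM of Ccnb2 was 49.1, 46.8 and 49.1 in Control, 11.8, 10.96 and 13.02 in LPS and 10.2, 10.1 and 8.91 in PIC. It was 54.9, 51.6 and 55.5 in TBHQ, 15.97, 16.98 and 15.6 in LPS + TBHQ and 14.1, 14.1 and 14.8 in PIC + TBHQ. The TBHQ libraries were the highest and the PIC libraries the lowest, and the 6 conditions did not overlap. Ccnb2 fell by 2.03 on the log2 scale in LPS (SE 0.074, edgeR FDR 3.9e-24) and by 2.33 in PIC (SE 0.068, edgeR FDR 5.8e-26). With TBHQ pretreatment its log2FC was 0.44 against LPS (edgeR FDR 1.7e-05) and 0.57 against PIC (edgeR FDR 3.4e-07). Its log2FC of -0.31 in PIC against LPS (edgeR FDR 0.00388) was no longer called without PIC replicate 3, at -0.24 with an edgeR FDR of 0.05.

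Ccna2 encodes cyclin A2, which acts in S phase and at the entry into mitosis, and had, with Ccnb2, the largest fall of the role in PIC. The FPKM of Ccna2 was 34.4, 33.5 and 33.1 in Control, 9.72, 9.35 and 10.2 in LPS and 6.35, 6.50 and 7.33 in PIC. The other libraries gave 34.6, 35.1 and 34.4 in TBHQ, 11.7, 13.1 and 13.7 in LPS + TBHQ and 8.20, 7.22 and 7.30 in PIC + TBHQ. Control and TBHQ were high, the 4 stimulated conditions were low and lay apart from both, and PIC + TBHQ overlapped PIC. Its log2FC was -1.80 in LPS (edgeR FDR 9.7e-25) and -2.33 in PIC (SE 0.065, edgeR FDR 5.4e-28), and 0.40 in LPS + TBHQ against LPS (edgeR FDR 3.0e-06). Within PIC, pretreatment gave 0.18 (edgeR FDR 0.0456). That last call ended with DESeq2 (DESeq2 FDR 0.0897), RLE scaling (edgeR FDR 0.0701), the compared conditions alone (edgeR FDR 0.0989), a mean of at least 50 counts (edgeR FDR 0.0614), no filter (edgeR FDR 0.0677) and in all 3 limma fits (limma FDR 0.0523 to 0.128). It also ended when any of 11 libraries was left out in turn, with a log2FC from 0.11 without PIC + TBHQ replicate 1 (edgeR FDR 0.299) to 0.20 without PIC + TBHQ replicate 3 (edgeR FDR 0.0535). The other 9 were PIC replicates 1 and 2, LPS replicates 1, 2 and 3, Control replicates 2 and 3, and TBHQ replicates 1 and 2.

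Cdk1, the kinase that drives entry into mitosis, had a log2FC of -1.21 in LPS and -1.72 in PIC. Ccnb1, cyclin B1, had -1.90 and -2.26, and Ccnf, which marks proteins for degradation in G2, -1.34 and -1.77. The phosphatase gene Cdc25c had the lowest mean FPKM of the 42 members over all libraries, with between 54 and 400 counts per library. Its FPKM was 4.13, 4.59 and 4.31 in Control, 0.772, 1.44 and 1.12 in LPS and 0.819, 1.01 and 1.10 in PIC, and 4.53, 4.97 and 4.15 in TBHQ, 1.56, 2.04 and 1.59 in LPS + TBHQ and 1.18, 1.10 and 0.963 in PIC + TBHQ. Control and TBHQ were high and overlapped, and LPS, PIC and PIC + TBHQ were low and overlapped one another. Cdc25c was -1.97 in LPS (SE 0.26, edgeR FDR 2.7e-14) and -2.16 in PIC (SE 0.13, edgeR FDR 1.9e-15). Pretreatment within LPS gave 0.63 (edgeR FDR 0.00259), and without LPS replicate 1 it was 0.42 (edgeR FDR 0.0536). All 7 members of the role were called higher in LPS + TBHQ against LPS, with a median of 0.42, and 5 in PIC + TBHQ against PIC, with a median of 0.21. Ccnf at 0.08 and Cdc25c at 0.14 were not called in the latter. The call of Cdk1 there, at 0.21 (edgeR FDR 0.00744), ended without PIC replicate 1 (edgeR FDR 0.058), PIC + TBHQ replicate 2 (edgeR FDR 0.0583) or PIC + TBHQ replicate 3 (edgeR FDR 0.0598).

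The mitotic kinases and chromosomal passenger proteins held both the member with the largest fall in LPS, Plk1, and the member with the smallest fall in LPS + TBHQ, Incenp. The 8 members had a median of -1.41 in LPS, -1.82 in PIC, -1.08 in LPS + TBHQ and -1.64 in PIC + TBHQ, and all 8 were lower than Control in each. Plk1 encodes polo-like kinase 1, which acts in spindle assembly, centrosome maturation and cytokinesis. The FPKM of Plk1 was 44.5, 41.8 and 41.1 in Control, 7.52, 7.73 and 8.36 in LPS and 5.46, 5.63 and 5.45 in PIC. Libraries with TBHQ had 43.3, 49.3 and 47.97 in TBHQ alone, 13.1, 14.2 and 13.5 in LPS + TBHQ and 10.4, 9.70 and 10.4 in PIC + TBHQ. PIC was the lowest and did not overlap LPS, both pretreated conditions lay above their stimulus alone without overlap, and TBHQ overlapped Control. Plk1 was 5.42-fold lower in LPS (log2FC -2.44, SE 0.058, edgeR FDR 5.8e-27) and 7.80-fold lower in PIC (log2FC -2.96, SE 0.039, edgeR FDR 3.1e-29). It was 1.72-fold higher in LPS + TBHQ than in LPS (log2FC 0.79, SE 0.058, edgeR FDR 5.6e-11). Within PIC, pretreatment made it 1.86-fold higher (log2FC 0.89, SE 0.038, edgeR FDR 2.9e-11), the largest rise of the 42 members in that comparison. The interaction for Plk1 was 0.11 (edgeR FDR 0.72).

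Incenp encodes the scaffold of the chromosomal passenger complex, which holds Aurora B at centromeres, and had the highest FPKM of the 42 members as a mean over all 18 libraries, though not in Control or TBHQ alone. The FPKM of Incenp was 41.4, 42.3 and 39.3 in Control, 26.04, 23.5 and 25.9 in LPS and 18.8, 19.1 and 19.9 in PIC. In cells with TBHQ it was 50.7, 49.99 and 50.3 in TBHQ alone, 32.9, 32.9 and 33.02 in LPS + TBHQ and 23.2, 23.7 and 24.1 in PIC + TBHQ. TBHQ lay above Control, LPS + TBHQ above LPS and PIC + TBHQ above PIC, each without overlap. Incenp was 1.64-fold lower in LPS (log2FC -0.71, SE 0.056, edgeR FDR 7.8e-17) and 2.15-fold lower in PIC (log2FC -1.11, SE 0.04, edgeR FDR 1.8e-22). Its 1.25-fold fall in LPS + TBHQ against Control was the smallest of the 42 (log2FC -0.33, SE 0.033, edgeR FDR 2.1e-08). Pretreatment gave a log2FC of 0.39 against LPS (edgeR FDR 3.1e-09) and 0.31 against PIC (edgeR FDR 7.3e-07).

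The kinase genes Aurka, whose product works at centrosomes, and Aurkb, whose product works at centromeres and the midzone, had log2FC of -1.66 and -1.40 in LPS and -2.00 and -2.05 in PIC. Birc5, survivin, and Cdca8, borealin, are further passenger proteins and had -1.50 and -1.35 in LPS and -1.75 and -1.64 in PIC. Tpx2, which activates Aurora A on the spindle, had -1.41 in LPS and -1.64 in PIC. Ttk, the kinase that starts checkpoint signalling at kinetochores, had -1.42 in LPS and -1.88 in PIC. All 8 members were called higher in LPS + TBHQ against LPS, with a median of 0.37, and 6 in PIC + TBHQ against PIC, with a median of 0.26. Birc5 at 0.09 and Ttk at 0.08 were not called in the latter. All 8 were called lower in PIC against LPS, with a median of -0.37. Birc5, at -0.25 there (edgeR FDR 0.0109), was not called without LPS replicate 3, at -0.21 (edgeR FDR 0.0674), or PIC replicate 2, at -0.19 (edgeR FDR 0.0851).

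The spindle checkpoint and the partners of the anaphase-promoting complex moved unevenly. All 7 were lower than Control after both stimuli, with medians of -1.40 in LPS and -1.60 in PIC, and -1.07 in LPS + TBHQ and -1.54 in PIC + TBHQ. Only 3 of the 7, Bub1b, Cdc20 and Ube2c, were called higher in LPS + TBHQ against LPS, where the median was 0.10, and the same 3 were called higher in PIC + TBHQ against PIC, where it was -0.02. Cdc20 encodes the activator that the checkpoint restrains. The FPKM of Cdc20 was 60.05, 61.4 and 59.5 in Control, 11.8, 12.9 and 11.5 in LPS and 9.72, 9.79 and 9.01 in PIC. It was 65.8, 68.8 and 71.7 in TBHQ, 22.2, 19.2 and 22.6 in LPS + TBHQ and 16.7, 17.2 and 17.4 in PIC + TBHQ. No condition overlapped another, TBHQ was the highest and PIC the lowest. Cdc20 had a log2FC of -2.33 in LPS (SE 0.054, edgeR FDR 3.4e-27) and -2.69 in PIC (SE 0.042, edgeR FDR 4.3e-29). Its 1.77-fold rise in LPS + TBHQ against LPS was the largest of the 42 members there (log2FC 0.82, SE 0.091, edgeR FDR 2.1e-12). Within PIC, pretreatment gave a log2FC of 0.86 (SE 0.044, edgeR FDR 4.0e-12).

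Bub3, a checkpoint protein that binds Bub1 and the Bub1b product at kinetochores, had the smallest fall after each stimulus. The FPKM of Bub3 was 25.6, 24.9 and 24.6 in Control, 18.98, 17.9 and 18 in LPS and 18.4, 19.6 and 18.7 in PIC. The values with TBHQ were 25.8, 26.3 and 26.4 in TBHQ alone, 18.5, 19.4 and 19.9 in LPS + TBHQ and 18.04, 18.3 and 19.1 in PIC + TBHQ. Control and TBHQ were high, and the 4 stimulated conditions were lower and overlapped one another. Its fall of 1.37-fold in LPS (log2FC -0.46, SE 0.03, edgeR FDR 4.6e-12) and 1.34-fold in PIC (log2FC -0.42, SE 0.031, edgeR FDR 1.8e-11) was the smallest of the 42 in each. The same held for PIC + TBHQ against Control, at 1.36-fold (log2FC -0.44, SE 0.03, edgeR FDR 7.2e-12). Bub3 was 0.07 in LPS + TBHQ against LPS (edgeR FDR 0.2) and -0.02 in PIC + TBHQ against PIC (edgeR FDR 0.736), and not called in either.

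Pttg1 encodes securin, the protein that holds separase inactive until anaphase, and its order of conditions differed from that of every other member. The FPKM of Pttg1 was 23.4, 23.1 and 24 in Control, 8.41, 9.54 and 8.92 in LPS and 9.71, 10.9 and 10.2 in PIC. After TBHQ it was 21.5, 21.6 and 20.7 in TBHQ alone, 7.92, 9.27 and 9.004 in LPS + TBHQ and 8.24, 7.53 and 9.26 in PIC + TBHQ. PIC lay above LPS without overlap, PIC + TBHQ lay below PIC without overlap, and LPS + TBHQ overlapped LPS. The log2FC was -1.40 in LPS (edgeR FDR 1.4e-17) and -1.21 in PIC (edgeR FDR 2.5e-16). Pttg1 had the highest log2FC of the 42 in PIC against LPS, 0.19 (fold 1.14, SE 0.073, edgeR FDR 0.0905), which was not called. Limma on log2(FPKM + 0.1) and on log2(FPKM + 1) called it higher there (limma FDR 0.0483 and 0.0471). In the main edgeR test it was the only member called lower in PIC + TBHQ against PIC, 1.22-fold (log2FC -0.29, SE 0.1, edgeR FDR 0.00775), and without PIC + TBHQ replicate 2 it was -0.23 (edgeR FDR 0.0579). It had the lowest log2FC of the 42 in LPS + TBHQ against LPS, -0.04 (fold 1.03, edgeR FDR 0.808), and was not called.

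Bub1 encodes a checkpoint kinase of the kinetochore. The FPKM of Bub1 was 34.4, 33.2 and 34.1 in Control, 15.1, 16.1 and 16.7 in LPS and 12.4, 11.97 and 14.1 in PIC. It was 28.6, 28.9 and 28.8 in TBHQ, 17.2, 17.4 and 16.8 in LPS + TBHQ and 11.3, 11.6 and 12.1 in PIC + TBHQ. TBHQ lay below Control without overlap, and PIC + TBHQ overlapped PIC. Pretreatment within PIC gave a log2FC of -0.13 (edgeR FDR 0.0658), and it was called lower when any of 5 libraries was left out in turn, from -0.19 without PIC replicate 2 (edgeR FDR 0.0108) to -0.15 without LPS replicate 2 (edgeR FDR 0.0391) or LPS replicate 3 (edgeR FDR 0.0354). The others were PIC replicate 1 and PIC + TBHQ replicate 3, at -0.17 each. It was also called lower with RLE scaling (edgeR FDR 0.0388) and with a mean of at least 50 counts (edgeR FDR 0.0259). Its interaction, -0.23 (edgeR FDR 0.12), was called at -0.29 without PIC replicate 2 (edgeR FDR 0.0325). Mad2l1, which binds Cdc20 while the checkpoint is active, had log2FC of -1.15 in LPS and -1.60 in PIC, and 0.08 and -0.03 for TBHQ pretreatment within LPS and within PIC, neither called. Bub1b, which encodes the checkpoint protein BubR1, had -1.54 in LPS and -1.62 in PIC. The interaction of Bub1b, -0.26 (edgeR FDR 0.0518), was called without LPS replicate 2 (-0.27, edgeR FDR 0.0482), PIC replicate 1 (-0.30, edgeR FDR 0.0287) or PIC + TBHQ replicate 3 (-0.31, edgeR FDR 0.023). It was also called with DESeq2 (-0.27, DESeq2 FDR 0.0254), RLE scaling (edgeR FDR 0.0339), a mean of at least 50 counts (edgeR FDR 0.0267), no filter (edgeR FDR 0.0442), and in limma on log2(FPKM + 0.1) (limma FDR 0.041) and on log2(FPKM + 1) (limma FDR 0.0378). In PIC against LPS, Bub1b was called lower with total library size (-0.21, edgeR FDR 0.0014). Ube2c, the ubiquitin-conjugating enzyme of the complex, had -2.02 and -2.21. Ube2c was -0.19 in PIC against LPS (edgeR FDR 0.0626), and without LPS replicate 1 it was called lower at -0.29 (edgeR FDR 0.0065), as it was without PIC replicate 3, also at -0.29 (edgeR FDR 0.0102), with a replicate block (edgeR FDR 0.0476) and with total library size (edgeR FDR 0.00126).

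**Figure D3:**
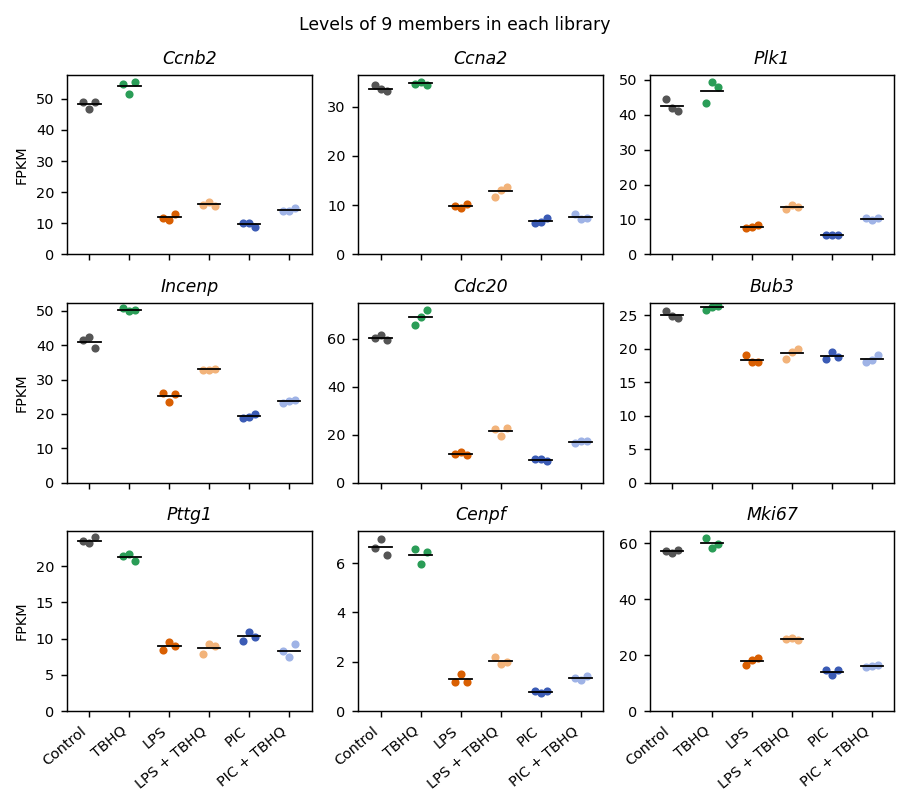
FPKM of 9 members in each of the 18 libraries, in the 6 conditions; points are libraries and lines the means of 3, with each axis from 0. Cdc20 and Plk1 lie higher in both pretreated conditions than in the stimulus alone, Bub3 lies close in all 4 stimulated conditions, and Pttg1 lies lower in PIC + TBHQ than in PIC.

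Among the 6 centromere and kinetochore members, all were lower than Control, with medians of -1.70 in LPS, -2.05 in PIC, -1.25 in LPS + TBHQ and -1.93 in PIC + TBHQ. Cenpf encodes a large protein of the outer kinetochore and nuclear matrix that accumulates in G2. The FPKM of Cenpf was 6.62, 6.97 and 6.32 in Control, 1.18, 1.48 and 1.19 in LPS and 0.816, 0.713 and 0.827 in PIC. Cells given TBHQ had 6.56, 5.95 and 6.46 in TBHQ alone, 2.20, 1.91 and 2.001 in LPS + TBHQ and 1.32, 1.26 and 1.43 in PIC + TBHQ. PIC was the lowest and lay apart from LPS, PIC + TBHQ overlapped LPS, and TBHQ overlapped Control. In the main edgeR test, its fall of 8.52-fold in PIC was the largest of any member in any comparison (log2FC -3.09, SE 0.079, edgeR FDR 5.8e-28), and its log2FC in LPS was -2.38 (SE 0.12, edgeR FDR 4.9e-25). In limma on log2(FPKM + 1), its log2FC in PIC was -2.10, and that of Plk1, at -2.74, was lower. By edgeR, Cenpf also had the largest fall against Control in LPS + TBHQ, 3.28-fold (log2FC -1.71, SE 0.072, edgeR FDR 9.4e-22), and in PIC + TBHQ, 4.97-fold (log2FC -2.31, SE 0.067, edgeR FDR 5.0e-25). Cenpf was 1.64-fold lower in PIC than in LPS, again the largest fall (log2FC -0.72, SE 0.13, edgeR FDR 2.5e-07). Pretreatment gave 0.66 against LPS (edgeR FDR 4.2e-08) and 0.78 against PIC (edgeR FDR 2.6e-08).

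Spc25 encodes a subunit of the Ndc80 complex, which binds microtubules at the kinetochore, and had the highest mean FPKM of this role over all libraries, though not in Control or TBHQ alone. The FPKM of Spc25 was 15.02, 16.1 and 14.7 in Control, 5.72, 5.35 and 5.44 in LPS and 4.30, 4.88 and 4.52 in PIC. The libraries with TBHQ held 14.4, 15.98 and 14.4 in TBHQ alone, 5.89, 6.67 and 7.08 in LPS + TBHQ and 5.11, 4.55 and 5.81 in PIC + TBHQ. Control and TBHQ were high and overlapped, PIC + TBHQ overlapped both PIC and LPS, and LPS + TBHQ lay above LPS without overlap. Spc25 was -1.48 in LPS (SE 0.046, edgeR FDR 1.5e-17) and -1.76 in PIC (SE 0.065, edgeR FDR 9.3e-20). Its log2FC for pretreatment within LPS was 0.25 (edgeR FDR 0.0352), a call that ended with DESeq2 (DESeq2 FDR 0.0562), with the compared conditions alone (edgeR FDR 0.0537), in limma on log2(FPKM + 1) without a filter (limma FDR 0.105), and when any of 5 libraries was left out in turn, with values from 0.19 without LPS + TBHQ replicate 3 (edgeR FDR 0.19) to 0.27 without LPS replicate 1 (edgeR FDR 0.0503). The others were LPS replicates 2 and 3 and LPS + TBHQ replicate 2. Within PIC it was 0.19 (edgeR FDR 0.126) and was not called, and without PIC + TBHQ replicate 2 it was called at 0.26 (edgeR FDR 0.0431), as it was with total library size (edgeR FDR 0.028). Spc25 was -0.28 in PIC against LPS (edgeR FDR 0.024), and not called without LPS replicate 1 (-0.25, edgeR FDR 0.0835), PIC replicate 1 (-0.24, edgeR FDR 0.101) or PIC replicate 3 (-0.27, edgeR FDR 0.0665), nor in limma on log2(FPKM + 1) without a filter (limma FDR 0.0695).

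Cenpa, the histone variant that marks the centromere, had -2.39 in LPS and -2.67 in PIC. Cenpe, a kinesin of the kinetochore, had -1.81 and -2.16. Ndc80 and Nuf2, a pair of subunits of the Ndc80 complex, had -1.49 and -1.59 in LPS and -1.95 and -1.86 in PIC. All 6 members were called higher in LPS + TBHQ against LPS, with a median of 0.51. For pretreatment within PIC, Cenpa, Cenpe and Cenpf were called higher, and Ndc80, Nuf2 and Spc25 were not called, at 0.03, -0.08 and 0.19. The members were not tested against each other. The interaction of Ndc80 was -0.43 (edgeR FDR 0.059) and that of Nuf2 -0.43 (edgeR FDR 0.0725). Without PIC replicate 2 the interaction of Ndc80 was called at -0.56 (edgeR FDR 0.0039). It was also called with DESeq2 (DESeq2 FDR 0.0351), RLE scaling (edgeR FDR 0.0451), a mean of at least 50 counts (edgeR FDR 0.0391) and no filter (edgeR FDR 0.0383). That of Nuf2 was called with DESeq2 (DESeq2 FDR 0.0382), with no filter (edgeR FDR 0.00902), and without PIC replicate 1 (-0.55, edgeR FDR 0.0103) or LPS replicate 2 (-0.51, edgeR FDR 0.0257). The interaction of Cenpe, -0.31 (edgeR FDR 0.152), was called without LPS replicate 2 (-0.43, edgeR FDR 0.0173) or PIC replicate 2 (-0.40, edgeR FDR 0.044), and with no filter (edgeR FDR 0.029).

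Several calls of these kinetochore members did not hold in every setting. Cenpa was -0.28 in PIC against LPS (edgeR FDR 0.0195), and not called without LPS replicate 3 (-0.15, edgeR FDR 0.268) or PIC replicate 3 (-0.21, edgeR FDR 0.148). Nor was it called with the compared conditions alone (edgeR FDR 0.0738), in limma on log2(FPKM + 1) (limma FDR 0.0501) or in the same fit without a filter (limma FDR 0.116). Nuf2 was -0.26 there (edgeR FDR 0.0279), and not called without LPS replicate 2 (-0.19, edgeR FDR 0.184), LPS replicate 3 (-0.26, edgeR FDR 0.0675), PIC replicate 1 (-0.15, edgeR FDR 0.25) or PIC replicate 2 (-0.24, edgeR FDR 0.0826). The compared conditions alone (edgeR FDR 0.0701) and limma on log2(FPKM + 1) with and without a filter (limma FDR 0.0556 and 0.132) did not call it either. Cenpe was 0.24 in PIC + TBHQ against PIC (edgeR FDR 0.0175), and not called without PIC replicate 1 (0.23, edgeR FDR 0.059), PIC replicate 2 (0.15, edgeR FDR 0.189), PIC + TBHQ replicate 2 (0.19, edgeR FDR 0.117) or PIC + TBHQ replicate 3 (0.21, edgeR FDR 0.0884), nor in any of the 3 limma fits (limma FDR 0.0632 to 0.158).

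The largest role, the 12 proteins of the spindle and of cytokinesis, moved within a narrow range. Every log2FC lay between -1.87 and -1.17 in LPS and between -2.33 and -1.74 in PIC, with medians of -1.72 and -2.14. Kif20a encodes a kinesin that carries Plk1 and passenger proteins to the midzone, and had the highest mean FPKM of the role over all libraries, though not in LPS. The FPKM of Kif20a was 21.2, 20.2 and 20.2 in Control, 5.47, 5.02 and 6.42 in LPS and 4.76, 4.10 and 5.06 in PIC. With TBHQ the values were 23.1, 23.02 and 21.5 in TBHQ alone, 7.79, 8.69 and 7.83 in LPS + TBHQ and 6.32, 5.89 and 6.05 in PIC + TBHQ. Both pretreated conditions lay above their stimulus alone without overlap, and PIC overlapped LPS in FPKM. In counts scaled by TMM, PIC lay below LPS without overlap. Kif20a was -1.87 in LPS (SE 0.1, edgeR FDR 1.5e-22) and -2.15 in PIC (SE 0.093, edgeR FDR 2.0e-24). Pretreatment gave 0.52 against LPS (edgeR FDR 1.3e-06) and 0.40 against PIC (edgeR FDR 2.0e-04). PIC against LPS gave -0.28 (edgeR FDR 0.00852), and no call without LPS replicate 3 (-0.18, edgeR FDR 0.139) or PIC replicate 2 (-0.20, edgeR FDR 0.094), nor in limma on log2(FPKM + 1) without a filter (limma FDR 0.0586).

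Kif11 encodes the kinesin that pushes the spindle poles apart, and fell most of its role in PIC. The FPKM of Kif11 was 16.2, 16.4 and 16.1 in Control, 3.93, 5.14 and 4.69 in LPS and 3.54, 3.10 and 3.19 in PIC. The remaining conditions had 16.5, 15.4 and 16.4 in TBHQ, 6.42, 7.11 and 5.73 in LPS + TBHQ and 3.68, 3.47 and 4.45 in PIC + TBHQ. LPS + TBHQ lay above LPS without overlap, while PIC + TBHQ overlapped PIC and LPS. Kif11 was -1.83 in LPS (SE 0.12, edgeR FDR 2.9e-21) and -2.33 in PIC (SE 0.061, edgeR FDR 3.7e-24). It was 0.48 in LPS + TBHQ against LPS (edgeR FDR 1.5e-05). The value was 0.26 in PIC + TBHQ against PIC (edgeR FDR 0.0288), and was not called without PIC replicate 2 (0.21, edgeR FDR 0.138), PIC replicate 3 (0.22, edgeR FDR 0.113) or PIC + TBHQ replicate 3 (0.13, edgeR FDR 0.324), nor in any of the 3 limma fits (limma FDR 0.0962 to 0.242).

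The other kinesin genes of the role were Kif23, a part of centralspindlin, at -1.55 in LPS and -1.92 in PIC, Kif4, which organises the midzone, at -1.57 and -1.84, and Kif2c, which shortens microtubules, at -1.83 and -2.18. Prc1, which bundles midzone microtubules, had -1.86 in LPS and -2.31 in PIC. Anln, an actin-binding protein of the contractile ring, had -1.63 and -2.30, and Ect2, the exchange factor that activates RhoA there, -1.59 and -2.13. Racgap1, the partner of Kif23 in centralspindlin, had -1.54 in LPS and -1.96 in PIC. The spindle proteins Nusap1, Hmmr and Dlgap5 had -1.81, -1.80 and -1.17 in LPS, and -2.21, -2.08 and -1.74 in PIC. All 12 were called higher in LPS + TBHQ against LPS, with a median of 0.46, and all 12 lower in PIC against LPS, with a median of -0.40. Pretreatment within PIC left 10 called higher, with a median of 0.32, and Kif4 at 0.17 and Nusap1 at 0.16 were not.

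Nusap1, Kif4, Hmmr and Dlgap5, also of this role, had calls that did not hold in every setting. For pretreatment within LPS, Nusap1 at 0.25 (edgeR FDR 0.0336) was not called with DESeq2 (DESeq2 FDR 0.0625), the compared conditions alone (edgeR FDR 0.0812) or no filter (edgeR FDR 0.0583), nor without LPS replicate 1 (0.24, edgeR FDR 0.0917), LPS replicate 3 (0.19, edgeR FDR 0.156), LPS + TBHQ replicate 2 (0.23, edgeR FDR 0.0969) or LPS + TBHQ replicate 3 (0.22, edgeR FDR 0.119). Kif4 at 0.27 there (edgeR FDR 0.0224) was not called without LPS replicate 1 (0.23, edgeR FDR 0.103), LPS replicate 2 (0.24, edgeR FDR 0.0922) or LPS + TBHQ replicate 3 (0.26, edgeR FDR 0.0566), nor in limma on log2(FPKM + 1) without a filter (limma FDR 0.0864). For PIC against LPS, Kif4 at -0.27 (edgeR FDR 0.028) was not called without LPS replicate 3 (-0.20, edgeR FDR 0.172) or PIC replicate 1 (-0.17, edgeR FDR 0.228), with the compared conditions alone (edgeR FDR 0.0798) or in that limma fit (limma FDR 0.087). Hmmr at -0.28 (edgeR FDR 0.00593) was not called without LPS replicate 2 (-0.19, edgeR FDR 0.0863). For pretreatment within PIC, Dlgap5 at 0.29 (edgeR FDR 0.00615) was not called without PIC replicate 2 (0.18, edgeR FDR 0.106) or PIC + TBHQ replicate 3 (0.21, edgeR FDR 0.0798), nor in the limma fit without a filter (limma FDR 0.064).

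The members of chromosome structure are Mki67, which coats mitotic chromosomes and serves as a marker of cycling cells, and Top2a, the topoisomerase that untangles chromatids. The FPKM of Mki67 was 57.3, 56.5 and 57.7 in Control, 16.4, 18.3 and 19.04 in LPS and 14.7, 12.99 and 14.6 in PIC. It was 61.9, 58.2 and 59.9 in TBHQ, 25.9, 26.2 and 25.3 in LPS + TBHQ and 15.8, 16.3 and 16.4 in PIC + TBHQ. LPS + TBHQ lay above LPS and PIC + TBHQ above PIC without overlap, and PIC + TBHQ overlapped LPS at its lower end. Mki67 was -1.68 in LPS (SE 0.068, edgeR FDR 4.6e-27) and -2.04 in PIC (SE 0.057, edgeR FDR 9.2e-30). Pretreatment gave 0.53 against LPS (edgeR FDR 8.3e-12) and 0.21 against PIC (edgeR FDR 4.6e-04). By the interaction in the main edgeR test, Mki67 was the only member whose effect of TBHQ differed between the stimuli, at -0.32 (SE 0.09, edgeR FDR 0.00298). It was not called in limma on log2(FPKM + 1) without a filter, at -0.32 (limma FDR 0.0658). DESeq2 also called Bub1b, Ndc80, Nuf2 and Top2a lower. Top2a was -1.40 in LPS and -1.91 in PIC, 0.38 in LPS + TBHQ against LPS and 0.17 in PIC + TBHQ against PIC. That last value was called (edgeR FDR 0.00728), but not without PIC replicate 2 (0.11, edgeR FDR 0.105) or PIC + TBHQ replicate 3 (0.12, edgeR FDR 0.094), nor in limma on log2(FPKM + 1) without a filter (limma FDR 0.0742). The interaction of Top2a was -0.21 (edgeR FDR 0.1), and was called without LPS replicate 2 (-0.29, edgeR FDR 0.0072), PIC replicate 2 (-0.27, edgeR FDR 0.0291) or PIC + TBHQ replicate 3 (-0.26, edgeR FDR 0.0478), with DESeq2 (-0.23, DESeq2 FDR 0.0282) and with no filter (-0.23, edgeR FDR 0.014).

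The lowest and highest interaction values belonged to the Cdc25 genes, and neither was called. Cdc25c, with its low counts, had -0.49 (fold 1.40, SE 0.32, edgeR FDR 0.346). Cdc25b, which encodes the phosphatase that acts early at the centrosome, had 0.16 (fold 1.11, SE 0.087, edgeR FDR 0.459). The FPKM of Cdc25b was 19.2, 20.3 and 19.4 in Control, 8.04, 9.36 and 9.27 in LPS and 6.78, 6.97 and 6.54 in PIC, and 17.9, 19.6 and 19.8 in TBHQ, 12.3, 12.01 and 11.3 in LPS + TBHQ and 10.04, 9.70 and 10.2 in PIC + TBHQ. Each pretreated condition lay above its stimulus alone without overlap, and TBHQ overlapped Control. Cdc25b was -1.15 in LPS and -1.55 in PIC, and rose by 0.42 with pretreatment in LPS (edgeR FDR 2.5e-06) and by 0.57 in PIC (edgeR FDR 1.3e-08).

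In TBHQ against Control, the log2FC of the members lay between -0.24 and 0.29. The largest rise was that of Incenp, 1.23-fold (log2FC 0.29, SE 0.033, edgeR FDR 3.3e-07), and the only fall that was called was that of Bub1, 1.18-fold (log2FC -0.24, SE 0.016, edgeR FDR 1.0e-04). Cdc20 was 0.19 (edgeR FDR 0.00348), Ccnb2 0.16 (edgeR FDR 0.0288), Plk1 0.14 (edgeR FDR 0.041), Bub1b 0.14 (edgeR FDR 0.00831) and Racgap1 0.14 (edgeR FDR 0.047). The calls of 4 of these genes did not hold in every setting. Without TBHQ replicate 1, Bub1b was 0.12 (edgeR FDR 0.0537). Ccnb2 was not called in any of the 3 limma fits (limma FDR 0.0504 to 0.117), with no filter (edgeR FDR 0.072), or without Control replicate 2 (0.14, edgeR FDR 0.125), Control replicate 3 (0.17, edgeR FDR 0.0527), TBHQ replicate 1 (0.14, edgeR FDR 0.09) or TBHQ replicate 3 (0.14, edgeR FDR 0.114). Plk1 was not called with DESeq2 (DESeq2 FDR 0.0803), in any of the 3 limma fits (limma FDR 0.0536 to 0.115), with no filter (edgeR FDR 0.103), or without Control replicate 2 (0.13, edgeR FDR 0.127), Control replicate 3 (0.12, edgeR FDR 0.169), TBHQ replicate 2 (0.10, edgeR FDR 0.237) or TBHQ replicate 3 (0.12, edgeR FDR 0.143). Racgap1 was not called with DESeq2 (DESeq2 FDR 0.0661), in any of the 3 limma fits (limma FDR 0.146 to 0.302) or with total library size (edgeR FDR 0.0523). It was called only with all 3 libraries each of Control, TBHQ and LPS + TBHQ and with PIC + TBHQ replicate 2. Leaving out any of these 10 gave 0.13 to 0.16, with an edgeR FDR from 0.0501 to 0.147. Kif20a at 0.13 (edgeR FDR 0.0864) and Prc1 at 0.13 (edgeR FDR 0.0634) were called without LPS replicate 3, at 0.14 (edgeR FDR 0.0478) and 0.13 (edgeR FDR 0.0495), and with the compared conditions alone (edgeR FDR 0.0228 and 0.0398). Prc1 was also called with a mean of at least 50 counts (edgeR FDR 0.0409). With the compared conditions alone, Ube2c was called higher (edgeR FDR 0.0238) and Pttg1 lower (edgeR FDR 0.0429). The calls of Incenp, Cdc20 and Bub1 stood when any of the 18 libraries was left out.

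The mean FPKM of the 5 conditions other than TBHQ alone fell into 5 orders over the members. In 24 members the order from high to low was Control, LPS + TBHQ, LPS, PIC + TBHQ, PIC. In 13 members PIC + TBHQ stood above LPS, with the order otherwise alike. In Bub1, Mad2l1 and Nuf2, PIC + TBHQ stood below PIC. Bub3 had Control, LPS + TBHQ, PIC, PIC + TBHQ, LPS, and Pttg1 had Control, PIC, LPS, LPS + TBHQ, PIC + TBHQ. Control was thus the highest of these 5 conditions in all 42 members. The median ratio of the members' mean FPKM to Control was 0.336 in LPS, 0.256 in PIC, 0.448 in LPS + TBHQ, 0.302 in PIC + TBHQ and 1.03 in TBHQ.

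Other genes of mitosis, outside the 42, were counted in the same way. Of 83 such genes, 80 were lower and 1 higher in LPS, against 24.1% and 24% of all tested genes, with a median log2FC of -1.11. In PIC, 81 were lower and 1 higher, against 30.1% and 28.6%, with a median of -1.52. The higher gene in both was Zwint, a kinetochore protein, at 0.50 in LPS. Cenpt and Zw10 were neither in LPS, and Cenpt was neither in PIC. For LPS + TBHQ against LPS, 44 were higher and 3, Cenpq, Gtse1 and Psrc1, were lower, with a median of 0.25. The shares of all tested genes were 11.7% and 12.2%. For PIC + TBHQ against PIC, 24 were higher and 9 lower, against 15.8% and 15.5% of all tested genes, with a median of 0.11. In PIC against LPS, 1 was higher and 60 lower, against 14.9% and 12.8% of all tested genes, with a median of -0.43. In TBHQ against Control 10 were higher and 3 lower, against 14.2% and 14.8%, with a median of 0.01. Against Control, 79 were lower and 2 higher in LPS + TBHQ, against 22.5% and 21.2% of all tested genes, with a median of -0.90. In PIC + TBHQ, 80 were lower and 2 higher, against 26% and 26.4%, with a median of -1.50. The interaction called 4 of the 83, Hjurp, Knl1, Kntc1 and Trip13, all lower, and 0 higher, where edgeR gave 0 at an unadjusted p under 0.05. Of all tested genes it called 1.01% lower and 0.825% higher.

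The anaphase-promoting complex itself, which the members Cdc20 and Ube2c serve, had medians near 0. Of its 14 subunits and its activator Cdh1, 15 genes in all, 1 was higher and 6 lower in LPS, against 24% and 24.1% of all tested genes, with a median of -0.10. In PIC 4 were higher and 7 lower, against 28.6% and 30.1% of all tested genes, with log2FC from -0.58 to 0.34 and a median of -0.09. Within LPS, pretreatment left 1 gene, Anapc5, higher and 0 lower, with 2 lower at an unadjusted p under 0.05 in edgeR, and a median of 0.01. Of all tested genes, 11.7% were higher and 12.2% lower there. In PIC + TBHQ against PIC, Anapc5 was higher and Anapc10, Anapc7 and Cdc27 were lower, with a median of -0.01. There, 15.8% of all tested genes were higher and 15.5% lower. Genes listed as brakes on the cell cycle, not all of them at entry into mitosis, were called in both directions, as were all tested genes. Of 14 such genes, 13 were tested, and Cdkn1c was at 0 counts in every library. Btg2, Cdkn1a, Gadd45a and Gadd45b were higher in LPS, and Cdkn2c, Cdkn2d, Chek1, Chek2, Pkmyt1 and Wee1 were lower. In PIC, 4 were higher and 6 lower, with Ppp2r2a in place of Gadd45a. Of all tested genes, 24% were higher and 24.1% lower in LPS, and 28.6% and 30.1% in PIC.

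Cdkn1a encodes p21, an inhibitor of cyclin-dependent kinases. Its mean FPKM was 40.4 in Control (SD 2.94, n = 3), 106 in LPS (SD 4.20, n = 3) and 140.5 in PIC (SD 3.15, n = 3). With TBHQ it was 54.2 in TBHQ alone (SD 1.96, n = 3), 54.9 in LPS + TBHQ (SD 1.60, n = 3) and 67.2 in PIC + TBHQ (SD 2.51, n = 3). The log2FC of Cdkn1a was 1.38 in LPS (edgeR FDR 1.2e-24) and 1.78 in PIC (edgeR FDR 2.1e-28), and -0.95 in LPS + TBHQ against LPS (edgeR FDR 2.5e-19) and -1.05 in PIC + TBHQ against PIC (edgeR FDR 1.3e-20). Wee1, the kinase that inhibits Cdk1, was -1.26 in LPS and -1.79 in PIC, and 0.60 and 0.68 with pretreatment within LPS and within PIC. Gadd45b, a stress protein that binds Cdk1, was 1.41 in LPS and 1.91 in PIC, and -0.92 and -0.96 with pretreatment. The Cdkn1a, Wee1 and Gadd45b genes were chosen after their values were seen. Of the 13 tested brakes on the cell cycle, pretreatment left 4 higher and 4 lower within LPS, with a median of 0.03. Of all tested genes, 11.7% were higher and 12.2% lower. Within PIC, 3 of the 13 were higher and 6 lower, against 15.8% and 15.5% of all tested genes, with a median of 0.09.

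DNA replication and G1/S genes, which act earlier in the cycle, were lower by a smaller median than the members. Of 51 such genes, 42 were lower and 1 higher in LPS, against 24.1% and 24% of all tested genes, with a median of -0.40. In PIC, 48 were lower and 1 higher, against 30.1% and 28.6%, with a median of -0.86. The member medians were -1.58 and -1.98. In LPS + TBHQ against Control, 36 were lower and 3 higher, against 22.5% and 21.2% of all tested genes, with a median of -0.26. In PIC + TBHQ against Control, 49 were lower and 1 higher, against 26% and 26.4%, with a median of -0.76. In LPS + TBHQ against LPS, 24 were higher and 1 lower, against 11.7% and 12.2% of all tested genes, with a median of 0.13. In PIC + TBHQ against PIC, 12 were higher and 6 lower, against 15.8% and 15.5%, with a median of 0.03. In PIC against LPS, 1 was higher and 44 lower, against 14.9% and 12.8% of all tested genes, with a median of -0.40. In TBHQ against Control, 8 were higher and 7 lower, shares like the 14.2% and 14.8% of all tested genes, with a median of -0.01. The interaction called 3 of the 51 lower, Rrm1 at -0.19 (edgeR FDR 0.046), Rrm2 at -0.31 (edgeR FDR 0.0097) and Slbp at -0.34 (edgeR FDR 0.0121), and 0 higher, where edgeR gave 1 at an unadjusted p under 0.05, with a median of -0.10. Of all tested genes, the interaction called 1.01% lower and 0.825% higher. The mean share of library counts of the 51 genes was 0.472% in Control, 0.335% in LPS and 0.238% in PIC. For the members it was 0.521%, 0.172% and 0.124%. The difference between the lists was not tested.

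The promoters of the members were read from RefSeq on GRCm38.p6, as 300 bases from 250 before to 50 after the annotated start. Of the 42 members, 35 had an entry, with 38 entries in all. Aurkb, Ccna2, Cdc25c, Dlgap5, Incenp, Kif20a and Tpx2 had none. The motifs were counted on both strands. They were the cell cycle genes homology region, spelled TTTGAA or TTCGAA, the NF-Y box, spelled CCAAT, and the E2F site, spelled TTTCCCGC, TTTCGCGC, TTTGGCGC or TTTGCCGC. TTCGAA reads alike on both strands and was counted once, no spelling contains another, and neighbouring matches may share bases. A match is a description of letters, not a site or a cause.

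The homology region was in 31 of the 38 member promoters, 81.6%, and in 19.2% of all 32851 promoters. TTTGAA alone was in 76.3% of member promoters and 17.9% of all, and TTCGAA in 10.5% and 1.56%. The NF-Y box was in 30 member promoters, 78.9%, against 37.4% of all, and at least 2 copies were in 55.3% against 11.7%. Both motifs together were in 28 member promoters, 73.7%, against 7.52% of all. An E2F site was in 1 member promoter, that of Cdk1, 2.63% against 2.26% of all. In the 49 promoters of the DNA replication and G1/S genes, the shares were 22.4% for the homology region, 59.2% for the NF-Y box, 14.3% for both and 32.7% for the E2F site. In the 78 promoters of the other mitosis genes they were 60.3%, 65.4%, 41% and 12.8%. Among the 32 members with 1 entry, 25 with the homology region had a median log2FC in PIC of -1.96 and 7 without it -1.86. The 7 were Birc5, Ccnb1, Cenpe, Mad2l1, Nuf2, Nusap1 and Pttg1. For the NF-Y box the medians were -1.98 in 24 members with it and -1.90 in 8 without.

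Of the promoters with an entry, those of the 3 members with the largest fall in PIC and of the member with the smallest are shown, so that both ends of the range can be compared. Capitals mark the homology region and the NF-Y box, and TTCAAA is TTTGAA on the opposite strand. The RefSeq regions on GRCm38.p6 are chr1:189688037-189688336 on the minus strand for Cenpf, chr7:122159185-122159484 on the plus strand for Plk1, chr4:118437294-118437593 on the minus strand for Cdc20 and chr7:131560120-131560419 on the plus strand for Bub3.
Cenpf: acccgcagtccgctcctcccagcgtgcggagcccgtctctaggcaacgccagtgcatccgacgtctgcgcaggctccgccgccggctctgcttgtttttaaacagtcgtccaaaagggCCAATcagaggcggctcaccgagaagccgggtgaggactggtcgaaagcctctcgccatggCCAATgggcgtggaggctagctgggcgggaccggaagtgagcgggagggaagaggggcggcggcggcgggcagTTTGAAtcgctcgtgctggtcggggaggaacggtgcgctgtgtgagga
Plk1: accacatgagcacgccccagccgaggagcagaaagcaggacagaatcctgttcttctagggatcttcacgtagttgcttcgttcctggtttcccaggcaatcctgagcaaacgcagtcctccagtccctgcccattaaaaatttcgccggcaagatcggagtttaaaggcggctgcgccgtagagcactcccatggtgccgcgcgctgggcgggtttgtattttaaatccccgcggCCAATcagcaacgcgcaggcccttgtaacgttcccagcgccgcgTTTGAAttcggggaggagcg
Cdc20: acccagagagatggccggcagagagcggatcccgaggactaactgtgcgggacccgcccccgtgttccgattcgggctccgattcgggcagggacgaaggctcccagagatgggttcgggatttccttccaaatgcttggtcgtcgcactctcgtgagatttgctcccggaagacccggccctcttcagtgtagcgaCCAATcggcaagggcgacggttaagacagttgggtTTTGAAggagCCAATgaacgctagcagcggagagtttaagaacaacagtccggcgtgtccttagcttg
Bub3: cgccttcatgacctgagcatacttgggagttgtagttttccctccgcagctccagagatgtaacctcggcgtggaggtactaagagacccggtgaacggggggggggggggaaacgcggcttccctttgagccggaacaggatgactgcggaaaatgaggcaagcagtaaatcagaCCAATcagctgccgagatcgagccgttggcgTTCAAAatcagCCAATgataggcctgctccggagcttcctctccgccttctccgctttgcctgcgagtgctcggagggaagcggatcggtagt

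Each of these 4 promoters held at least 1 homology region and 1 NF-Y box, that of the least changed member included. In Cenpf, TTTGAA began at position 3, counting the annotated start as the first base and -1 as the base before it, and the NF-Y boxes began at -132 and -71. In Plk1, TTTGAA began at position 31, and the NF-Y box at -14. In Cdc20, TTTGAA began at -18 and the NF-Y boxes at -53 and -8. In the Bub3 entry shown, the homology region began at -43, on the opposite strand, and the NF-Y boxes at -74 and -32. RefSeq has a second Bub3 entry with a later start, from which the same motifs began at -167, -198 and -156.

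Reads of 3 members could be shared with near copies elsewhere in the genome. Of the 50-base words in the transcripts of Ccnb1, 23.4% also occur in other genes, most of them in Ccnb1-ps, which had at most 38 counts in any library. For Cdc20 the share was 10.4%, most of it with Gm7856, at most 1 count, and for Plk1 6.56%, with Plk-ps1, at most 27 counts. For each of the other 39 members the share was at most 4.04%, the value of Racgap1.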

How the data were processed

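RNA from 18 libraries of a mouse macrophage line was measured by the authors. The authors deposited counts per gene, and FPKM per gene, which are counts scaled to gene length and library total, with a further factor that is constant within a library. Each FPKM was checked against the gene length in bases that the authors list. Their notes name HISAT2 2.0.5, StringTie 1.3.3b and featureCounts 1.5.0-p3. Tables and figures used pandas 2.3.3, scipy 1.17.1, matplotlib 3.10.9 and numpy 2.4.6 in Python 3.11.15. In R 4.3.3 with edgeR 4.0.16, genes were filtered by filterByExpr, scaled by TMM and tested by the quasi-likelihood test in 1 fit of all 18 libraries, with a coefficient for each condition and Benjamini-Hochberg adjustment over 13691 genes. The steps were tested on simulated data. Depth was 14423390 to 18851626 counts, and a gene at up to 3 counts was read as not detected, which covers counting error only. Log2 scaled counts used a prior count of 2.

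Members and lists were chosen with earlier results of these data known. Given in full were, in each role, the member with the highest mean FPKM and that with the largest change in PIC, and the members with the highest and lowest log2FC in each of the 9 comparisons. Others were named where a count was 5 or fewer. Alternatives were DESeq2 1.42.0, limma 3.58.1 on log2 FPKM with 1 or 0.1 added or without a filter, RLE and total library size scaling, no filter or a mean of at least 50 counts, the compared conditions alone, a replicate block, 3 thresholds, and leaving out each library. Shared sequence was counted on GENCODE transcripts. The study describes its libraries as strand-specific. Whether the counting used strand is not stated, so reads of an antisense gene may be among those of a member. The alignments and any measure of RNA quality were not analysed here.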

Additional observations from a re-analysis of the deposited data

Results flagged for a closer look

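The effect of TBHQ differed between the stimuli by the edgeR interaction test with Benjamini-Hochberg adjustment in 1 member and in 8 genes of the other lists. Over all 13691 tested genes it called 113 higher (0.825%) and 138 lower (1.01%). Each value is the log2 effect of TBHQ in PIC minus that in LPS. Mki67 was -0.32 (FDR 0.00298), from 0.53 in LPS and 0.21 in PIC. Hjurp, the chaperone of Cenpa, was -0.29 (FDR 0.00793), from 0.05 in LPS and -0.24 in PIC. For Knl1, a kinetochore scaffold, the value was -0.45 (FDR 0.0312), from 0.49 and 0.05. For Kntc1, which recruits dynein to kinetochores, it was -0.42 (FDR 0.00114), from 0.21 and -0.22. Trip13, which takes checkpoint complexes apart, had -0.39 (FDR 0.0392), from 0.34 and -0.06. Of the DNA replication and G1/S genes, Rrm1 was -0.19 (FDR 0.046), from 0.13 and -0.07, Rrm2 -0.31 (FDR 0.0097), from 0.21 and -0.10, and Slbp -0.34 (FDR 0.0121), from 0.07 and -0.27. Ptprc, a marker of the macrophage line, was -0.21 (FDR 0.0296), from -0.10 and -0.31. The 8 genes outside the 42 were named because the interaction called them.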

How the results depend on the processing

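Of 10583 checks of a member in a comparison under another setting, 10410 kept direction and side of the threshold. In the rest, 123 lost a call, 50 gained one and 0 reversed. Many of the checks left out a library of neither condition compared, which enters a comparison only through the shared fit. In the 4 comparisons of a stimulated condition with Control, every member call stood in all settings at the same threshold. The study's threshold (FDR below 0.01, absolute log2FC above 2) gave 6 members lower in LPS, 20 in PIC, 0 in LPS + TBHQ against Control and 8 in PIC + TBHQ against Control, in place of 42. At this threshold, and with an absolute log2FC above 1, there were 0 calls in place of 6 higher and 1 lower in TBHQ against Control, 38 higher in LPS + TBHQ against LPS, 29 higher and 1 lower in PIC + TBHQ against PIC, 37 lower in PIC against LPS and 1 lower in the interaction; the higher threshold makes these losses. In TBHQ against Control, 3 members were higher at FDR below 0.01, and 3 in each of the 3 limma fits, on log2(FPKM + 0.1), on log2(FPKM + 1) and on the latter without a filter, in place of 6, and 2 were lower with the compared conditions alone. In PIC + TBHQ against PIC, 2 were lower with RLE scaling and 2 with a mean of at least 50 counts, in place of 1. In PIC against LPS, 1 was higher in limma on log2(FPKM + 0.1) and 1 on log2(FPKM + 1), in place of 0. In the interaction, 5 were lower with DESeq2, 3 with RLE, 2 in limma on log2(FPKM + 0.1), 2 on log2(FPKM + 1), 0 without its filter, 3 with a mean of at least 50 counts and 6 with no filter, in place of 1. The cause of these shifts was not tested. Leaving out a library gave 3 to 8 higher in TBHQ against Control, 0 to 2 lower in PIC + TBHQ against PIC and 1 to 5 lower in the interaction. With replicate number as a replicate block, the counts were those of the main test except for 38 lower in PIC against LPS, where Ube2c was added. Correlations of residuals between libraries of the same number had a median of 0.026, from -0.0719 to 0.142, and those between other numbers -0.0114, from -0.166 to 0.125. Of the 18 libraries, 11 correlated best with their own number, where 6 are expected by chance, and whether the numbers pair the libraries was not tested further. The largest ratio of a fold change to that reported was 1.99, for Cenpf in PIC, in limma on log2(FPKM + 1), where the added 1 shrinks low values. Leaving out a library moved no called fold change by more than 1.17 times. Cdc25c, with 54 to 400 counts, is the member that depth limits most.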
